A study of Mus musculus with 6 samples.

Results

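The genes that carry a cell from G1 into S phase were followed in whole ovaries of mice aged 9 days post partum (dpp). They were the D-type cyclins Ccnd1, Ccnd2 and Ccnd3, their kinases Cdk4 and Cdk6, the inhibitors Cdkn1b, Cdkn2c and Cdkn2a, and Rb1. These 9 genes were picked by name, and all 9 were found among the 47205 genes of the deposited table and passed the filter for testing, a mean of at least 1 FPKM (fragments per kilobase, with gene length and library size both taken into account), with 14714 genes tested in all. RNA sequencing was done on 3 ovary libraries of SRSF1 cKO mice, whose granulosa cells had lost the splicing factor gene Srsf1 by knockout, and 3 of WT mice, all labelled as ovary. No source used here names the Cre driver, the strain or any pooling of animals. The ovary also holds oocytes, stroma and other cells, and without the driver it is not known which of them kept Srsf1. The labels number the replicates without saying whether each was a separate animal, so the p-values below measure the spread between these libraries, which may be technical.

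D-type cyclins bind CDK4 or CDK6, and the active kinase phosphorylates the retinoblastoma protein, which then releases E2F transcription factors to switch on genes of DNA replication. INK4 proteins, encoded by Cdkn2a, Cdkn2b, Cdkn2c and Cdkn2d, bind CDK4 and CDK6 and keep them from the cyclin, while CIP/KIP proteins such as p27, encoded by Cdkn1b, bind and inhibit cyclin-CDK complexes, above all those of CDK2. In the mouse ovary cyclin D2 is the D-type cyclin best known for granulosa cells: its gene answers to follicle-stimulating hormone, and granulosa cells of mice without it proliferate poorly. p27 restrains granulosa cell division and, in the oocyte, the activation of primordial follicles.

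The libraries held 16.8 to 18.7 M reads recovered from the FPKM values, and 1 read in a gene of 1 kb was worth 0.052 to 0.0581 FPKM. The targeted gene, Srsf1, had 20.3, 26.9 and 21.4 FPKM in cKO replicates 1, 2 and 3, against 39.9, 49.6 and 46.3 FPKM in WT replicates 1, 2 and 3, with no overlap of the groups. Its log2 fold change was -0.96 (limma adjusted p = 0.32), so the targeted gene itself did not pass the threshold of 0.05. Granulosa and oocyte marker genes were present in every library (12 of 12 each with a mean over the 6 libraries of at least 1 FPKM). The granulosa markers Cyp19a1 (0.773 FPKM in cKO, 2.16 FPKM in WT) and Fshr (0.886 FPKM in cKO, 1.57 FPKM in WT) reached that mean only through their WT level. Summed granulosa markers were 759 to 918.0 FPKM in cKO and 918.2 to 1000.1 FPKM in WT, and oocyte markers 2461 to 2786 FPKM in cKO and 2570.4 to 2769.8 FPKM in WT. Of the 12 granulosa markers, 10 were lower in cKO and 2, Inhbb and Amhr2, higher, where 50.0% of all genes tested were higher. Foxl2 (120 FPKM in cKO, 189 FPKM in WT) and Amh (126 FPKM in cKO, 165 FPKM in WT) differed most in FPKM, and the groups overlapped for Amh. Surface epithelium markers summed to 233 to 303 FPKM in cKO and 149 to 214 FPKM in WT, endothelial markers to 157 to 162 FPKM in cKO and 140.3 to 144.5 FPKM in WT, and leukocyte markers to 81.7 to 238 FPKM in cKO and 33.1 to 56.6 FPKM in WT, with all 8, 7 and 10 of them tested and 0 at a level of 0 throughout. Theca and steroidogenic markers summed to 30.1 to 60.4 FPKM in cKO and 124 to 188 FPKM in WT, but 4 of these 6, Cyp17a1, Cyp11a1, Insl3 and Lhcgr, averaged under 1 FPKM. Most of that sum was Hsd3b1, at 38.1 ± 14.2 FPKM in cKO and 139 ± 36.6 FPKM in WT, while Star, the other one tested, averaged 5.94 ± 1.10 FPKM in cKO and 5.19 ± 0.695 FPKM in WT (SD, n = 3 each). Stromal markers overlapped, at 2334 to 3063 FPKM in cKO and 2037 to 2966 FPKM in WT. The part of these other cells in the results below was not tested.

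Sequence upstream of the gene start was at hand for 6 of the 9 genes (RefSeq, build GRCm38.p6), as 9 windows of 250 bases, since Ccnd3, Cdkn2c and Cdkn2a each have 2 start sites there. The Cdk4 window is shown because Cdk4 was the most abundant of the 9 genes and its window held 4 matches to CACGTG, the E-box bound by MYC-type factors. Both Cdkn2a windows are shown because the table gives 1 value for a gene with 2 products: transcripts from the upstream start encode p19ARF, a protein that holds back the p53 antagonist MDM2, and those from the downstream start encode p16INK4a, an inhibitor of CDK4 and CDK6. Capitals mark CACGTG in the Cdk4 window and matches to the E2F-type letters TTTGGCGC, TTTCGCGC, TTTCCCGC or TTTGCCGC in the Cdkn2a windows, each searched on both strands, and every line runs 5′ to 3′ on the gene's strand.
Cdk4, chr10:127063285-127063534, plus strand: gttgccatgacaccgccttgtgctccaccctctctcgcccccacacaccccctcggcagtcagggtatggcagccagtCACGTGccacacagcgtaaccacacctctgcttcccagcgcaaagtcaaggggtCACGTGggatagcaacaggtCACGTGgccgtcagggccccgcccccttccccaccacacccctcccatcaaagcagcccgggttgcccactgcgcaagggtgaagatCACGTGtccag
Cdkn2a upstream start, chr4:89294620-89294869, minus strand: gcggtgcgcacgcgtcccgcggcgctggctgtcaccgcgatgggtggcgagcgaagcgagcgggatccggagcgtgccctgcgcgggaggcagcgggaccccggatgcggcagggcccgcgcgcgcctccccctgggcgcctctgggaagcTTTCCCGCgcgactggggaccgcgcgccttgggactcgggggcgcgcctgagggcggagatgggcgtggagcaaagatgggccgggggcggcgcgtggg
Cdkn2a downstream start, chr4:89282193-89282442, minus strand: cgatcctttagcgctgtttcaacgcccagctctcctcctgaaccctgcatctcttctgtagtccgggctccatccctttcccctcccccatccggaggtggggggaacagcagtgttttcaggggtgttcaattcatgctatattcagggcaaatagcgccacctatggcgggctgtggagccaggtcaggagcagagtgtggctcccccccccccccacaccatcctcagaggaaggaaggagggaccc
The 4 E-box matches began 172, 118, 98 and 11 bases before the Cdk4 start. CACGTG occurred at least once in 6.02% of 32851 promoter windows of this length, and 7 windows held 4 or more matches. Cdk6 had 1 match, 220 bases before its start, and the windows of Ccnd3, Cdkn1b, Cdkn2c and Cdkn2a had 0. The single E2F-type match lay 99 bases before the upstream Cdkn2a start, in TTTCCCGC, and 1.86% of all windows held such a match. The 2 Cdkn2a starts lie 12427 bases apart. GC boxes (GGGCGG, either strand) were found in 6 of the 9 windows, with 0 in those of Cdk6, the downstream Cdkn2a start and the second Cdkn2c start, against 32.7% of all windows. CCAAT boxes and the FOX-type letters TGTTTAC were searched too. CCAAT was found only in the windows of Cdkn1b and the second Ccnd3 start, against 33.85% of all windows. TGTTTAC was found only in that of the first Ccnd3 start, against 3.17%. A match is only a run of letters, and no binding was measured.

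Compared per kilobase of gene length, the 9 genes spanned a wide range, with Cdk4 at a mean of 162 FPKM over the 6 libraries, above 98.5% of tested genes, and Cdkn2a lowest at 2.45 FPKM, above 18.1%. Between them came Ccnd2 at 69.0, Cdkn1b at 60.1, Ccnd3 at 48.5, Cdkn2c at 13.9, Cdk6 at 10.1, Rb1 at 8.30 and Ccnd1 at 7.28 FPKM. The steps from Cdk4 to Ccnd2, from Ccnd3 to Cdkn2c and from Ccnd1 to Cdkn2a were wider than the spread of the libraries. Elsewhere the ranges of neighbours overlapped, although the order Cdkn1b over Ccnd3, Cdkn2c over Cdk6 and Cdk6 over Rb1 held within each of the 6 libraries. Ccnd2 stood above Cdkn1b in 5 of 6 libraries and Rb1 above Ccnd1 in 4 of 6. The coefficient of variation over the libraries was 11.3% to 18.3% for the 9 genes (median 13.3%), beside a median of 13.55% over all genes tested.

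**Figure D1:**
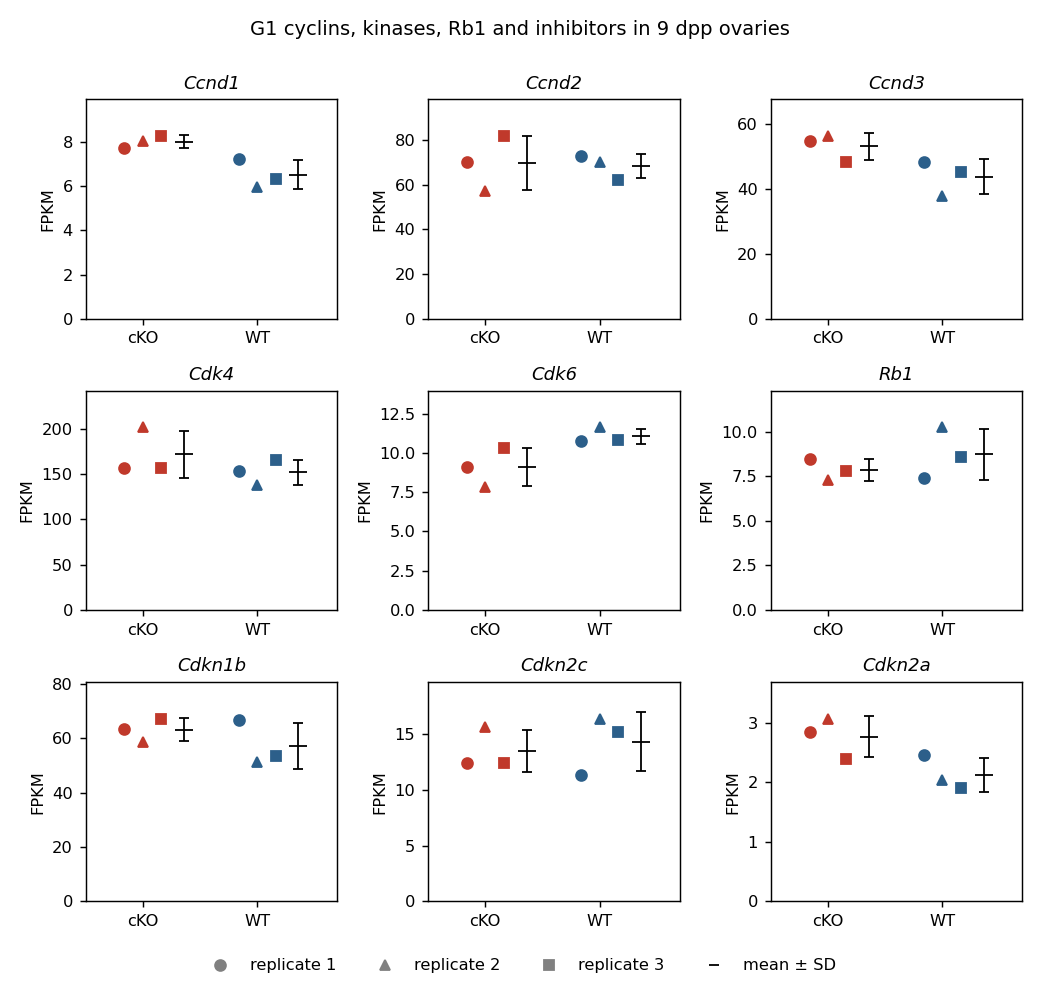
FPKM of each gene in 3 cKO libraries (red, left) and 3 WT libraries (blue, right), with the mean ± SD in black beside each group; every vertical axis starts at 0. The groups do not overlap for Ccnd1, from 7.73 FPKM up in cKO and up to 7.26 FPKM in WT, and for Cdk6, up to 10.3 FPKM in cKO and from 10.8 FPKM up in WT.

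No G1 gene differed between cKO and WT past the threshold (limma, adjusted p = 0.768 or more for all 9). Srsf1 did not pass it either, so a gene that misses the threshold here is not shown to be unchanged. Over all genes tested 3, or 0.0204%, passed: 1 higher (0.00680%) and 2 lower (0.0136%) in cKO. At an unadjusted limma p under 0.05, 2 of the 9 were higher in cKO (Ccnd1 and Ccnd3) and 0 lower, beside 3.64% higher and 2.70% lower of all genes tested. In 2 of the 9 genes the groups did not overlap, 1 higher and 1 lower in cKO, beside 12.3% of all genes (6.37% higher and 5.89% lower). The median log2 fold change, cKO minus WT on the scale of log2(FPKM + 1), was 0.15 for the 9 genes, with 6 higher and 3 lower, and -0.00014 for all genes tested. Of all genes tested 50.0% were higher. Genes measured in the same libraries are not independent, so no count of directions here or below is a test. Since whole ovaries were sequenced, fewer cells of a type and less RNA per cell cannot be told apart in any of these values.

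Ccnd2, the granulosa cell cyclin (chromosome 6, 127102125 to 127131913, minus strand, in the table's GRCm39 positions), had 70.0, 57.3 and 81.7 FPKM in cKO replicates 1, 2 and 3, against 72.9, 69.9 and 62.2 FPKM in WT replicates 1, 2 and 3. The highest and the lowest of the 6 values were both in cKO, so the WT range lay wholly inside the cKO range. On the log2 scale cKO minus WT was 0.015 (95% interval -0.32 to 0.35, limma adjusted p = 0.989), and it changed sign to -0.11 without cKO replicate 3 and to -0.050 without WT replicate 3. With 9073 to 12367 reads in a library, counting error was about 1.05% at most, far below the spread between libraries.

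Ccnd3, a D-type cyclin gene best known for lymphoid and muscle development (chromosome 17, 47815976 to 47910614, plus strand), had 54.9, 56.4 and 48.4 FPKM in cKO replicates 1, 2 and 3, against 48.4, 37.9 and 45.1 FPKM in WT. cKO replicate 3 and WT replicate 1 met at 48.4 FPKM, and the other cKO libraries lay above every WT library. Means were 53.2 ± 4.24 FPKM in cKO and 43.8 ± 5.37 FPKM in WT (SD, n = 3 each), which is 0.28 on the log2 scale (95% interval 0.0017 to 0.56, limma adjusted p = 0.773). Without WT replicate 2, the lowest library, it was 0.18.

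Ccnd1, the D-type cyclin gene that answers most widely to growth factors (chromosome 7, 144483668 to 144493568, minus strand), was the least abundant of the 3. It had 7.73, 8.08 and 8.29 FPKM in cKO replicates 1, 2 and 3, against 7.26, 5.99 and 6.33 FPKM in WT. All cKO libraries lay above all WT libraries, with a gap of 0.475 FPKM. The difference, 0.27 on the log2 scale (95% interval 0.031 to 0.50, limma adjusted p = 0.768), was tested alone by an exact two-sided permutation test too, with p = 0.1, the smallest that 3 against 3 libraries allow. Surface epithelium, endothelial and leukocyte markers also had higher sums in each cKO library than in any WT library, and their part in the Ccnd1 difference was not tested.

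Shares within a library do not depend on scaling between libraries, but they were not corrected for the gene length trend described below. Ccnd2 made up 52.8%, 47.0% and 59.0% of D-type cyclin FPKM in cKO replicates 1, 2 and 3, against 56.7%, 61.4% and 54.7% in WT. The mean share was 53.0% ± 6.004 in cKO and 57.6% ± 3.45 in WT, and the groups overlapped (exact two-sided permutation test, p = 0.4; n = 3 each). The difference of -4.67 percentage points was -1.71 without cKO replicate 2, -2.76 without WT replicate 2 and -7.71 without cKO replicate 3. Ccnd3 made up 40.9% ± 5.69 in cKO and 36.9% ± 3.26 in WT (exact permutation p = 0.4, n = 3 each), a difference of 4.004 points that was 1.29 without cKO replicate 2, 2.22 without WT replicate 2 and 6.97 without cKO replicate 3. Ccnd1 made up 6.15% ± 0.426 in cKO and 5.49% ± 0.206 in WT, with every cKO library above every WT library (exact permutation p = 0.1, n = 3 each). The Ccnd1 difference was 0.66 points, and 0.42 without cKO replicate 2. Adjusted over the 4 shares compared, the 3 above and that of Cdk4 below, each p was 0.4, and none could have passed with 3 libraries a group.

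**Figure D2:**
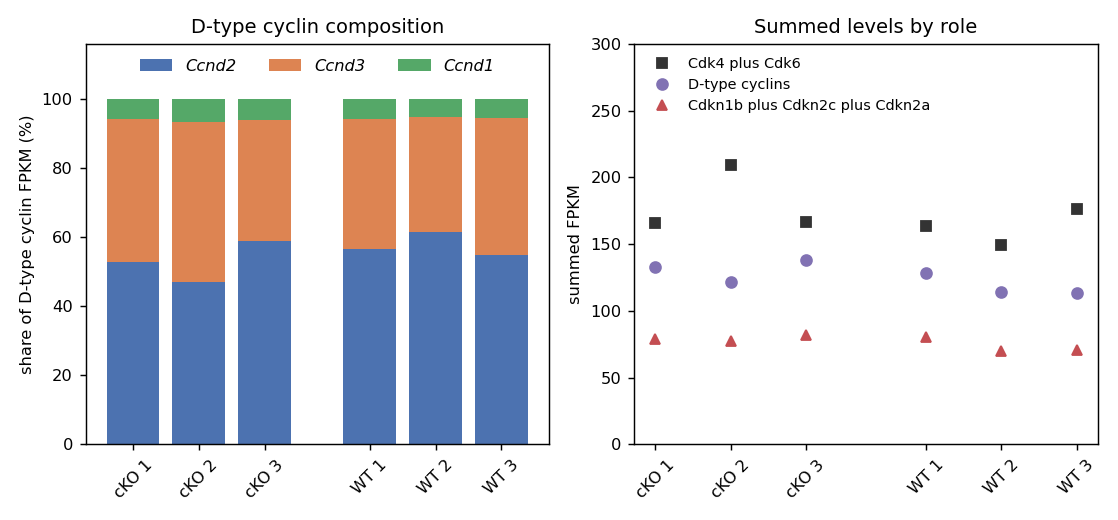
Left, share of D-type cyclin FPKM (%) taken by Ccnd2, Ccnd3 and Ccnd1 in each cKO and WT library; Ccnd2 runs from 47.0% to 59.0% in cKO and from 54.7% to 61.4% in WT. Right, summed FPKM of the kinases, the D-type cyclins and the inhibitors in the same libraries, on an axis from 0; in each of the 3 sums the groups overlap.

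Summed over the 3 genes, D-type cyclins reached 131 ± 8.46 FPKM in cKO and 119 ± 8.54 FPKM in WT, a ratio of 1.10 (exact two-sided permutation test, p = 0.2; n = 3 each). WT replicate 1, at 129 FPKM, lay inside the cKO range of 122 to 138 FPKM, and the other WT libraries stood lower, at 114 FPKM each.

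Cdk4, the kinase gene of the pair that dominated in this tissue (chromosome 10, 126899404 to 126903157, plus strand), had 157, 202 and 157 FPKM in cKO replicates 1, 2 and 3, against 153, 138 and 166 FPKM in WT. Only cKO replicate 2 lay above the WT range. Its log2 fold change was 0.17 (95% interval -0.15 to 0.49, limma adjusted p = 0.845), 0.048 without cKO replicate 2 and 0.099 without WT replicate 2.

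Cdk6, its partner kinase gene (chromosome 5, 3391004 to 3581008, plus strand), went the other way, at 9.13, 7.85 and 10.3 FPKM in cKO replicates 1, 2 and 3, against 10.8, 11.6 and 10.8 FPKM in WT. All cKO libraries lay below all WT libraries, with a gap of 0.446 FPKM. Its difference was -0.26 on the log2 scale (95% interval -0.53 to 0.0026, limma adjusted p = 0.773), and -0.17 without cKO replicate 2, the lowest library. The exact two-sided permutation test gave p = 0.1 for Cdk6, again the smallest possible and fixed by the lack of overlap. Cdk4 made up 94.9% ± 1.26 of the FPKM of the pair in cKO and 93.2% ± 0.855 in WT (exact two-sided permutation test, p = 0.2; n = 3 each). The difference of 1.69 points was 0.99 without cKO replicate 2.

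Cdkn1b, which encodes p27 (chromosome 6, 134897364 to 134902488, plus strand), was the most abundant inhibitor gene, at 63.5, 58.7 and 67.1 FPKM in cKO replicates 1, 2 and 3, against 66.7, 51.3 and 53.4 FPKM in WT. WT replicate 1 lay inside the cKO range, next to its top, and the other WT libraries lay below it. Its log2 fold change was 0.15 (95% interval -0.14 to 0.44, limma adjusted p = 0.849), 0.26 without WT replicate 1 and 0.078 without WT replicate 2.

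Cdkn2c, which encodes the INK4 protein p18 (chromosome 4, 109518073 to 109523953, minus strand), had 12.4, 15.7 and 12.4 FPKM in cKO replicates 1, 2 and 3, against 11.4, 16.4 and 15.2 FPKM in WT. Both the highest and the lowest value were in WT. A log2 fold change of -0.071 (95% interval -0.44 to 0.30, limma adjusted p = 0.935) became 0.028 without WT replicate 2 and -0.22 without WT replicate 1.

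Cdkn2a, with its 2 products described above (chromosome 4, 89192710 to 89212856, minus strand), had 2.84, 3.07 and 2.40 FPKM in cKO replicates 1, 2 and 3, against 2.45, 2.03 and 1.91 FPKM in WT. cKO replicate 3 lay just below WT replicate 1, and the other cKO libraries lay above all WT libraries. On the log2 scale cKO minus WT was 0.27 (95% interval -0.050 to 0.58, limma adjusted p = 0.791). These values rest on 40 to 67 reads a library, for which counting alone gives an error of up to 15.8%, and they do not separate p16INK4a from p19ARF transcripts.

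Rb1, the target of the kinases (chromosome 14, 73430298 to 73563446, minus strand), had 8.49, 7.28 and 7.81 FPKM in cKO replicates 1, 2 and 3, against 7.40, 10.2 and 8.58 FPKM in WT. WT replicate 1 lay among the cKO libraries. A log2 fold change of -0.13 (95% interval -0.43 to 0.18, limma adjusted p = 0.87) became -0.020 without WT replicate 2 and -0.23 without WT replicate 1. Another gene, Lpar6, lies within the span of Rb1 on the other strand, at a mean of 6.68 FPKM, and no source used here says whether the libraries keep strand. The ends of Ccnd1 and Ccnd3 overlap LTO1 and Bysl on the other strand. Cdk4, which ends at 126903157, barely meets Tspan31 on the other strand, which starts at 126903156.

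**Figure D3:**
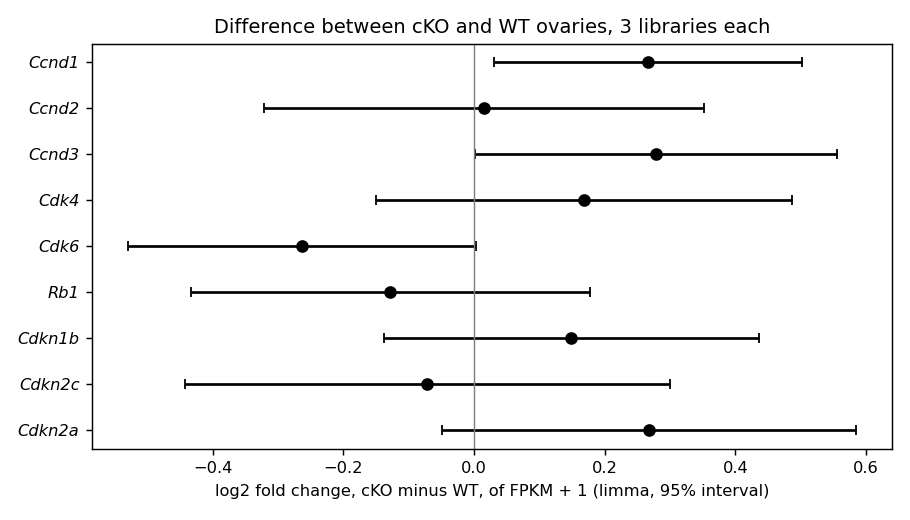
Log2 fold change of FPKM + 1, cKO minus WT, of each gene with its 95% interval from limma (3 libraries a group). The intervals of Ccnd1 and Ccnd3 lie above 0 before adjustment over all genes, that of Ccnd2 is centred at 0.015, and that of Cdk6 reaches from -0.53 to 0.0026.

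Gene length set cKO replicate 2 and WT replicate 2 apart in the whole table. In cKO replicate 2, genes under 2 kb stood 0.14 above the mean of the 6 libraries on the log2 scale (median of 4049 genes) and genes of 5 kb or more 0.11 below it (median deviation -0.11 over 4448 genes). WT replicate 2 showed the opposite, with -0.14 for the short genes and 0.092 for the long ones, while the other 4 libraries stayed between -0.029 and 0.051 in both classes. The short members, Cdk4 (1.42 kb) and Cdkn2a (1.14 kb), had their highest value in cKO replicate 2, and the long ones, Ccnd2 (8.25 kb), Cdk6 (12.1 kb) and Rb1 (6.60 kb), their lowest. The shares set genes of unlike length against each other and carry this trend. The Ccnd2 share was lowest in cKO replicate 2 (47.0%) and highest in WT replicate 2 (61.4%). The Cdk4 share was highest in cKO replicate 2 (96.3%) and lowest in WT replicate 2 (92.2%). In the comparison of the groups, the median log2 fold change was 0.087 for genes under 2 kb and -0.065 for genes of 5 kb or more.

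With the length trend of each library removed, the log2 fold change was 0.091 for Cdk4, -0.17 for Cdk6, 0.17 for Cdkn2a, -0.076 for Rb1 and 0.086 for Ccnd2, and it was 0.27 for Ccnd1 and 0.25 for Ccnd3. On that corrected scale the groups did not overlap for Ccnd1, Ccnd3 and Cdkn2a, higher in cKO, and for Cdk6, lower in cKO, that is for 4 of the 9, beside 12.4% of all genes tested on the same scale (6.52% higher and 5.85% lower). The gaps were narrow for Ccnd3, between 5.641 in cKO replicate 3 and 5.63 in WT replicate 1, and for Cdkn2a, between 1.803 and 1.786 in the same libraries. Cdkn2a rests on only 40 to 67 reads a library. Of the 9 genes, 0 passed the threshold there (limma, smallest adjusted p = 0.733). Without both replicates numbered 2, the log2 fold change was 0.21 for Ccnd1, 0.14 for Ccnd3, -0.14 for Cdk6, -0.021 for Cdk4 and 0.028 for Rb1. Both settings were added after the data had been seen.

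**Figure D4:**
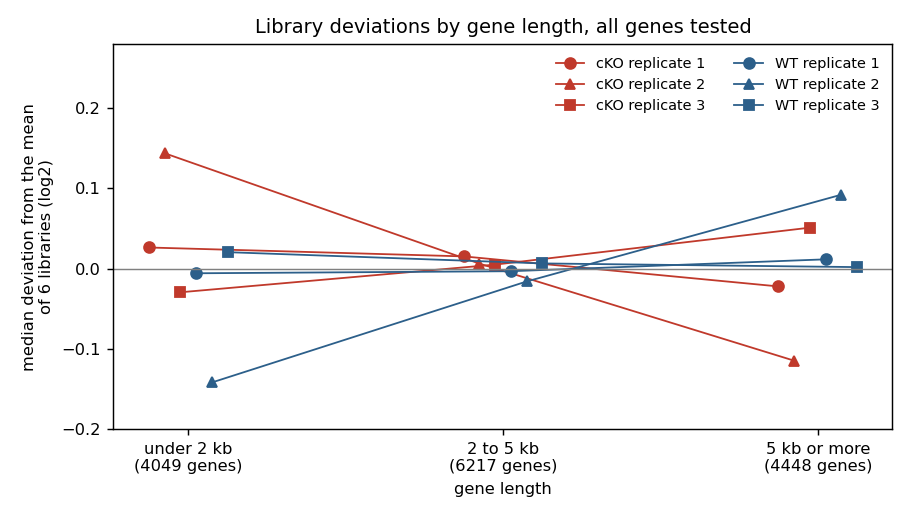
Median deviation of each library from the mean of all 6 on the log2(FPKM + 1) scale, for tested genes in 3 length classes; red lines are cKO and blue lines WT libraries. cKO replicate 2 runs from 0.14 for genes under 2 kb to -0.11 for genes of 5 kb or more, and WT replicate 2 from -0.14 to 0.092.

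The next cyclins and pocket proteins of the pathway gave 2 of 5 tested genes higher and 3 lower in cKO, with 0 past the threshold and 1, Ccne2, at an unadjusted limma p under 0.05 (6.34% of all genes tested). Ccne2, one of the E-type cyclin genes that pair with CDK2, stood at 1.75 ± 0.329 FPKM in cKO and 2.62 ± 0.102 FPKM in WT (SD, n = 3 each; log2 fold change -0.40, limma adjusted p = 0.76). The groups did not overlap for Ccne2, 1 of the 5, beside 12.3% of all genes tested. The pocket protein gene Rbl2 (p130) stood at 16.8 ± 0.704 FPKM in cKO and 14.8 ± 2.20 FPKM in WT, Cdk2 at 22.4 ± 1.62 FPKM in cKO and 24.2 ± 1.28 FPKM in WT, and Rbl1 (p107) at 7.10 ± 0.164 FPKM in cKO and 7.53 ± 0.805 FPKM in WT. The groups overlapped for all 3 of them.

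Among the other CDK inhibitors, Cdkn2b lay below the filter, and 2 of the 3 tested were higher in cKO, 0 past the threshold. Cdkn1c, an imprinted CIP/KIP gene that encodes p57, stood at 38.8 ± 8.07 FPKM in cKO and 27.8 ± 5.39 FPKM in WT (log2 fold change 0.46, limma adjusted p = 0.771). It was the 1 gene of the 3 with an unadjusted limma p under 0.05, beside 6.34% of all genes tested. Cdkn1a, the p53 target gene of p21, stood at 7.31 ± 2.35 FPKM in cKO and 4.51 ± 1.61 FPKM in WT (log2 fold change 0.59, limma adjusted p = 0.773). In both genes the groups overlapped. The INK4 gene Cdkn2d stood at 6.84 ± 1.17 FPKM in cKO and 7.28 ± 0.231 FPKM in WT.

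The E2F and DP transcription factor genes, which act below Rb1, gave 3 of 10 higher and 7 lower in cKO, beside 50.0% higher of all genes tested. Their median log2 fold change was -0.053, and 0 passed the threshold. E2f7, a repressor of the family, had the smallest p of the list and stood at 1.78 ± 0.0915 FPKM in cKO and 2.70 ± 0.598 FPKM in WT (log2 fold change -0.40, limma adjusted p = 0.771). It was the 1 gene of the 10 with an unadjusted limma p under 0.05, beside 6.34% of all genes tested. It was also the 1 gene without overlap of the groups, beside 12.3% of all genes tested. E2f2 stood at 3.96 ± 1.23 FPKM in cKO and 4.88 ± 0.738 FPKM in WT, and Tfdp2 and E2f3 differed by -0.080 and -0.064 on the log2 scale.

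Of 18 genes that E2F factors switch on at S phase entry, 17 were lower and 1 higher in cKO, where 50.0% of all genes tested were higher. The 18 genes were measured in the same 6 libraries, so their directions are not independent and the count is no test. Several of the lower ones lay close to 0, such as Mcm3 at -0.00088 and Pcna at -0.0072 on the log2 scale. Their median log2 fold change was -0.066, and 0 passed the threshold. Pola1, the catalytic subunit of DNA polymerase alpha, stood at 6.06 ± 0.56 FPKM in cKO and 7.78 ± 0.588 FPKM in WT (log2 fold change -0.32, limma adjusted p = 0.76), and was the 1 gene of the 18 with an unadjusted p under 0.05, beside 6.34% of all genes tested. Ccna2, the cyclin of S phase and G2, stood at 21.4 ± 1.49 FPKM in cKO and 25.8 ± 3.48 FPKM in WT, and Rrm2, a subunit of ribonucleotide reductase, at 19.2 ± 0.361 FPKM in cKO and 22.2 ± 2.20 FPKM in WT. Cdc6, a loader of the replicative helicase, stood at 3.99 ± 0.05 FPKM in cKO and 4.48 ± 0.525 FPKM in WT. The groups did not overlap for Pola1 and Rrm2, 2 of the 18, beside 12.3% of all genes tested.

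**Figure D5:**
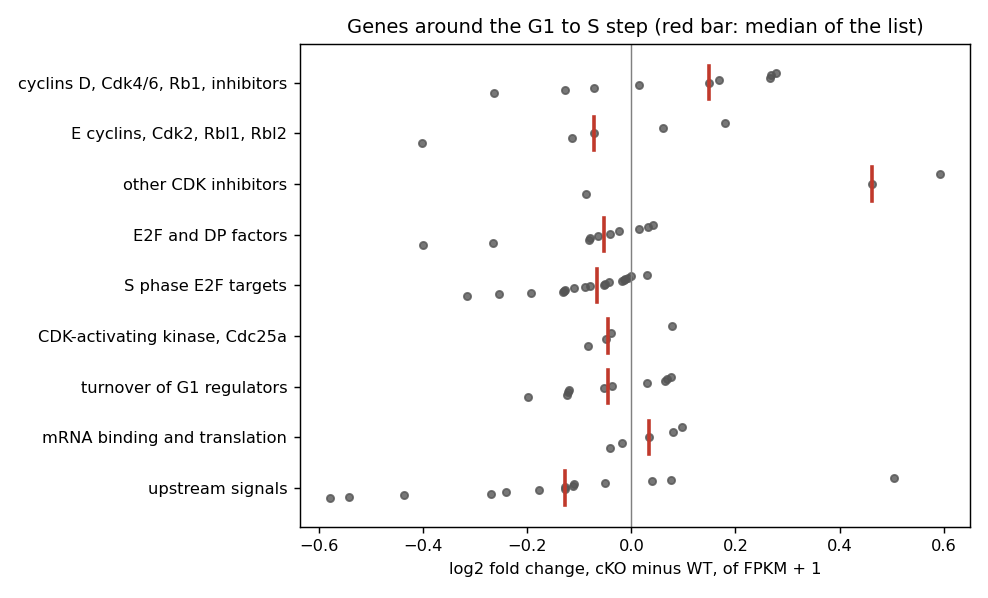
Log2 fold change of FPKM + 1, cKO minus WT, of each tested gene (grey) in the 9 G1 genes and in 8 lists around them, with the median of each list in red. The 9 G1 genes have a median of 0.15, the S phase E2F targets lie close to 0 with a median of -0.066, and the upstream signals spread widest, from -0.58 to 0.50.

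Upstream signals of cyclin D2 and p27 in follicles gave 3 of 14 genes higher and 11 lower in cKO, beside 50.0% higher of all genes tested. As above, the directions are not independent and the count is no test. The median log2 fold change of the 14 was -0.13, and 0 passed the threshold. At an unadjusted limma p under 0.05, 1 was higher and 4 were lower, beside 3.64% higher and 2.70% lower of all genes tested. Inhbb, which encodes the beta B subunit of activins and inhibin, stood at 76.4 ± 9.11 FPKM in cKO and 54.1 ± 11.8 FPKM in WT (log2 fold change 0.50, limma adjusted p = 0.759). The estrogen receptor gene Esr2 stood at 23.3 ± 5.08 FPKM in cKO and 34.3 ± 6.11 FPKM in WT (log2 fold change -0.54, limma adjusted p = 0.761). Smad3, a mediator of activin and TGF-beta signals, stood at 66.9 ± 4.19 FPKM in cKO and 79.1 ± 1.76 FPKM in WT, and Foxo1, a transcription factor held in check by follicle-stimulating hormone and AKT, at 28.7 ± 6.41 FPKM in cKO and 43.3 ± 10.1 FPKM in WT. Fshr, the receptor gene of follicle-stimulating hormone, stood at 0.886 ± 0.0437 FPKM in cKO and 1.57 ± 0.413 FPKM in WT. It passed the filter of 1 FPKM only through its WT level, and its place in the counts at unadjusted p and of overlap rests on that. The groups did not overlap for Esr2, Smad3, Foxo1 and Fshr, 4 of the 14 and all lower in cKO, beside 5.89% lower and 12.3% in either direction of all genes tested. Summed granulosa markers likewise stood lower in each cKO library than in any WT library, by a narrow gap between 918.0 and 918.2 FPKM, and their part in these values was not tested. Within that sum Inhbb and Amhr2 were higher in cKO. Fshr and Inhbb are on both lists.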

How the data were processed

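Reads were mapped with HISAT2 2.0.5 per the submitters' processing notes, which name the builds mm10 and GRCm39 without a role, and the chromosome accessions of the table are those of GRCm39. The authors deposited FPKM values per gene for 6 ovary libraries; the counter, annotation release and strandedness are named in no source used here. FPKM times gene length was a whole multiple of 1 step in each library (100% of values within 0.01 of a whole number), which gave 16.8 to 18.7 M reads a library. The denominators matched median-of-ratios size factors (ratio 1), so no further scaling was applied.

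FPKM values were tested as log2(FPKM + 1), which understates the change of low genes, in the 14714 genes whose mean reached 1 FPKM, by limma 3.58.1 in R 4.3.3 (moderated two-sided test, trend in the prior variance, Benjamini-Hochberg over all genes tested, threshold 0.05). The fit was tested on simulated data, with variances drawn from its own prior and no gene length trend. That run checks the code and not how well the fit suits these libraries. The replicate numbers were not taken to pair the libraries. Members, gene lists and tests were chosen with earlier results of these data known. All 9 members are reported, beside Srsf1, up to 4 genes with the smallest p from each list described, and the 3 genes most like Ccnd2 by Pearson's r. Fshr, Mcm3, Pcna, Cyp19a1, Amhr2 and Amh are named outside that rule. Lpar6, LTO1, Bysl and Tspan31 were chosen for where they lie, with their values known. Motifs were searched in RefSeq promoter windows.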

Additional observations from a re-analysis of the deposited data

How the results depend on the processing

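In every alternative run, 0 of the 9 G1 genes passed the threshold (limma, smallest adjusted p = 0.656). Ccnd1, Ccnd3, Cdkn1b, Cdkn2a and Cdk6 kept their direction in all of them, except that the filter at 5 FPKM drops Cdkn2a. The log2 fold change of Ccnd2 was -0.048 after rescaling to a common total and -0.053 with quantile normalization. When libraries were left out, singly or both replicates numbered 2 together (added after seeing the data), it ran from -0.11 to 0.16, that of Cdkn2c from -0.22 to 0.028, that of Cdk4 from -0.021 to 0.23 and that of Rb1 from -0.23 to 0.028. Cdk4 and Rb1 changed sign only without both replicates numbered 2. The cause was not tested in any of these. The Cdk4 share differed by 7.02 points in reads not divided by length, against 1.69 points in FPKM, by construction, since Cdk6 is the longer gene. In the same reads the Ccnd3 share differed by 2.62 points and the Ccnd2 share by -3.24 points. In FPKM, Ccnd2 over Ccnd2 plus Ccnd1 differed by -1.78 points.

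Genes higher in cKO numbered 1 and went to 0 with limma-voom on recovered reads, the replicate block, the length trend removed, protein-coding genes only, quantile normalization, no filter, a filter at 5 FPKM and a pseudocount of 0.1 or 0.5. Genes lower numbered 2 and went to 0 with limma-voom, the replicate block and no filter, and to 1 with the length trend removed, with protein-coding genes alone and without both replicates numbered 2. Leaving out single libraries gave 0 to 1 higher and 0 to 1 lower. Over single libraries, the Ccnd2 share differed by -7.71 to -1.71 points.

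Deviations of same-numbered libraries correlated at 0.18, -0.08 and -0.06, so the numbers were not taken as pairs; with the replicate number as a block the smallest adjusted p of the 9 genes was 0.825 (Ccnd1).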

Other observations

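Of the CDK-activating kinase genes Cdk7, Ccnh and Mnat1 and the phosphatase gene Cdc25a, 1 of 4 was higher in cKO (limma, smallest adjusted p = 0.877), with Cdk7 at 11.0 ± 0.733 FPKM in cKO and 11.7 ± 0.814 FPKM in WT. Of 10 genes for the turnover of cyclins and inhibitors, 4 were higher and 6 lower (limma, smallest adjusted p = 0.825). Skp2, which marks p27 for degradation, stood at 8.16 ± 0.875 FPKM in cKO and 9.56 ± 1.54 FPKM in WT, and Ambra1, which marks D-type cyclins, at 15.7 ± 0.708 FPKM in cKO and 17.2 ± 1.74 FPKM in WT. Ubac1, part of the KPC ligase of p27, stood at 10.4 ± 0.56 FPKM in cKO and 11.3 ± 0.328 FPKM in WT, and its partner Rnf123 at 6.95 ± 0.523 FPKM in cKO and 7.66 ± 0.209 FPKM in WT. The groups did not overlap for Ubac1, 1 of the 10, beside 12.3% of all genes tested. Of 5 tested genes for mRNA binding and translation, 3 were higher, with Eif4e at 12.0 ± 0.713 FPKM in cKO and 11.2 ± 1.43 FPKM in WT; Igf2bp1 lay below the filter.

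Among 12442 protein-coding genes compared over the 6 libraries, Spata5, Stam2 and Unc13c followed Ccnd2 most closely (Pearson's r = 0.99, 0.99 and 0.99 over 6 libraries). All 3 had their lowest value in cKO replicate 2 and their highest in cKO replicate 3, as Ccnd2 did. With so many genes and 6 libraries, high values of r arise readily, and the r are given as a description.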
